A study of Mus musculus with 2 samples.

Results

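The red cell membrane skeleton was followed here through 8 genes, Sptb, Ank1, Epb41, Epb42, Slc4a1, Add2, Tmod1 and Dmtn, chosen by name and matched by symbol to Ensembl gene identifiers. They are 8 of the 43346 genes in the tables, which list 59 transcripts for them. The RNA came from C57BL/6J mouse liver at 14.5 days of embryonic age, from littermates of both sexes, and was polyadenylated, depleted of ribosomal RNA and sequenced as stranded paired-end libraries. There was 1 group, with no treatment and no altered allele, and it held 2 biological replicates. The labels do not say how many embryos or litters each library pooled, so the spread between the libraries may be partly technical. The gene tables held 102720906 estimated counts in replicate 1 and 65640929 in replicate 2.

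Fetal liver at this age makes most of the embryo's red cells, and erythroblasts make up much of it. The membrane skeleton is a net of spectrin tetramers under the plasma membrane. Short actin filaments, capped by tropomodulin and bundled or held by adducin and dematin, tie spectrin ends together with the help of protein 4.1. Ankyrin and protein 4.2 fix the net to band 3, the anion exchanger. Several of these genes are known to make other protein forms in muscle, brain or kidney from the same locus by other starts, exons or ends. The libraries are whole organ RNA, in which fewer cells of a type and less RNA per cell cannot be told apart. The 6 erythroid markers reached at least 1 TPM in both libraries, as did the 5 hepatocyte markers. TPM is the authors' abundance per transcript length, scaled to the library.

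Every skeleton gene was expressed well above 10 TPM in both libraries. Slc4a1, which encodes band 3, was highest, at 547 and 625 TPM in replicates 1 and 2 (586 ± 54.9 TPM, SD, n = 2). Epb42, encoding protein 4.2, followed with 151 and 152 TPM. Epb41, encoding protein 4.1, had 107 and 102 TPM. These 3 did not overlap each other or any of the remaining 5.

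Dmtn, encoding dematin, had 59.5 and 61.0 TPM. Ank1, encoding erythroid ankyrin, had 66.2 and 53.2 TPM. Add2, encoding beta adducin, had 59.2 and 55.9 TPM. The range of Ank1 covered those of Dmtn and Add2, so the order of these genes is not resolved. Sptb, the gene of erythroid beta spectrin, had 38.0 and 35.0 TPM. Tmod1, encoding tropomodulin that caps the slow-growing filament end, was lowest with 30.9 and 20.6 TPM, and neither Sptb nor Tmod1 overlapped a neighbour. In rank by mean TPM the 8 ran from 129 (Slc4a1) to 2380 (Tmod1).

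**Figure D1:**
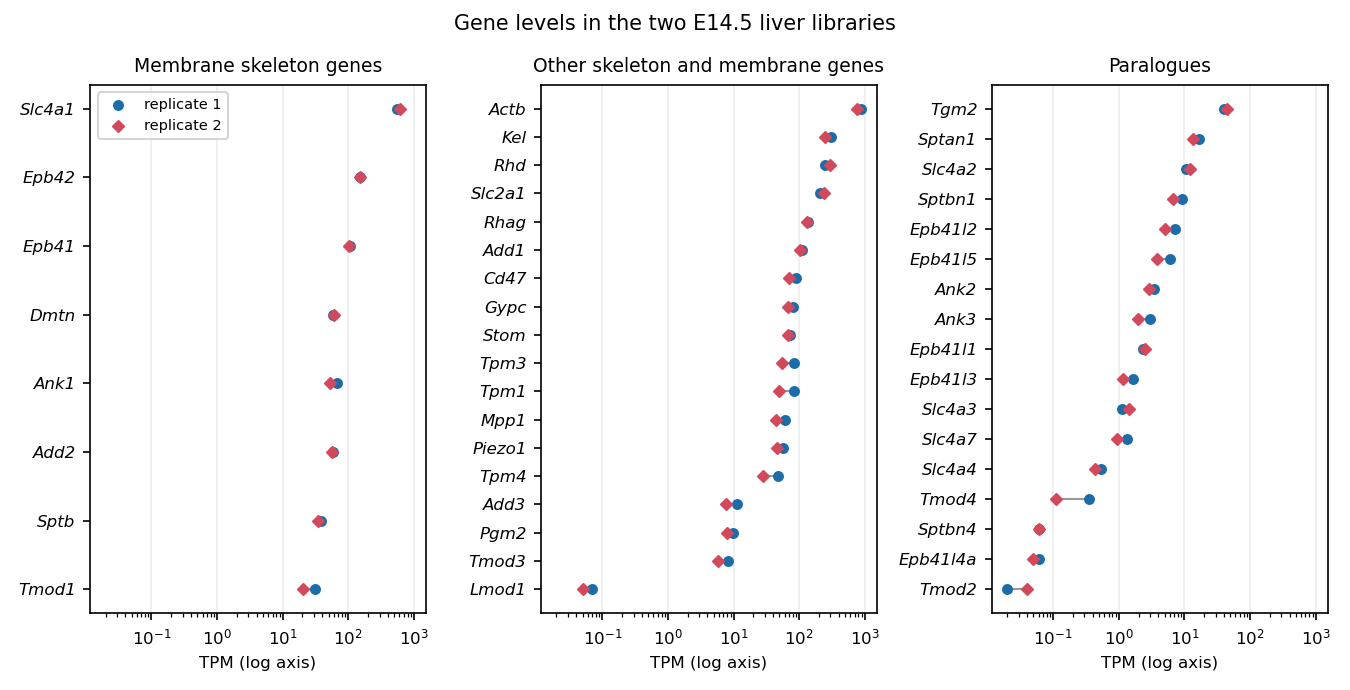
TPM (log axis) of the 8 membrane skeleton genes, of 18 other skeleton and membrane genes and of 17 paralogues in replicate 1 (circles) and replicate 2 (diamonds), with a grey line joining the libraries. All 8 skeleton genes lie above 20 TPM in both libraries, while Tmod2 lies below 0.1 TPM.

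No skeleton gene differed 2-fold between the libraries. The exact conditional binomial test on expected counts with TMM library sizes called 0 of the 8 (adjusted p under 0.05, fold of 2 or more), where 8.33% of the 17906 genes tested were called. An exact p measures counting error between 2 libraries and most genes of high count pass it. At an unadjusted p under 0.05 and with no fold limit all 8 differed, and edgeR's exact test with the dispersion of the housekeeping genes also called 0. The log2 difference, replicate 2 over replicate 1, ran from -0.32 for Tmod1 to 0.46 for Slc4a1, with Dmtn at 0.30 and the others between 0.05 and 0.17. The common spread over all tested genes corresponded to a coefficient of variation of 24.96%. For Ank1 the counts differed by 0.05 on the log2 scale while its TPM fell from 66.2 to 53.2. The mean transcript length assigned to Ank1 moved from 5322 to 5654 nt between the libraries. As TPM without globin and mitochondrial genes Ank1 had 137.3 and 132.8. The globin genes summed to 485116 TPM in replicate 1 and 575055 TPM in replicate 2. The part of each in the fall of Ank1 was not tested.

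The other parts of the skeleton were present too. Of 20 partner genes 19 reached 1 TPM in both libraries and 0 of 20 were called, where 8.33% of all tested genes were. The highest was Actb, encoding the actin of the short filaments, with 888 and 771 TPM. Kel, the Kell antigen gene, had 306 and 244 TPM, and Rhd, an Rh protein gene, had 249 and 295 TPM. Slc2a1, the glucose transporter gene, had 209 and 242 TPM, and Rhag, encoding the Rh-associated glycoprotein, had 136 and 130 TPM. Lmod1, a muscle leiomodin gene, was lowest at 0.07 and 0.05 TPM.

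Paralogues outside the erythroid set were lower by their median. Their median was 1.97 TPM in replicate 1 and 1.67 TPM in replicate 2, against 62.8 and 58.4 TPM for the 8 skeleton genes. Tgm2, a transglutaminase gene of the family that includes Epb42, led with 40.2 and 44.1 TPM. It was above Sptb and Tmod1 in both libraries. Sptan1, the non-erythroid alpha spectrin gene, followed with 16.5 and 13.4 TPM. Slc4a2, a widely expressed anion exchanger gene, had 10.6 and 12.2 TPM, Sptbn1 had 9.20 and 6.64 TPM, and Epb41l2 and Epb41l5 had 7.27 and 5.06 TPM and 6.00 and 3.84 TPM. Of 18 paralogues 2 were called, both higher in replicate 2 and both under 0.1 TPM. Over all 17906 tested genes 8.33% were called, 680 of them higher in replicate 2, so the paralogue count is near that share. One of them was Tmod2, which encodes a neural tropomodulin, at 0.02 and 0.04 TPM (19 and 42 counts). Neural markers moved the same way: 4 of 5 were called higher in replicate 2, and their sum was 1.72 TPM in replicate 1 and 5.88 TPM in replicate 2. Their part in the 2 paralogue calls was not tested.

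Isoform use was read from separate sources that answer different questions. IsoPct, in the mm10 transcript tables, is the percent of a gene's abundance that the authors' quantification assigned to each transcript. Junction reads, in an mm9 table, are reads that cross an intron, given for 2 replicates whose numbers the sources do not tie to the libraries. They are called table replicates here. Junction shares are given over both table replicates with a Wilson 95% interval, which covers counting error only. The mm9 exon table proved to be not an independent source: all 510 exon RPKM values above 0.1 equalled, within 1%, the summed RPKM of the transcripts that hold the exon. Of 293 exon models of the 8 genes 108 lay under 0.5 of the median of their gene.

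For 3 genes IsoPct put nearly everything on 1 transcript. Slc4a1-201 held 99.18% and 99.72% in replicates 1 and 2, and Tmod1-201 held 98.16% and 99.90%. Add2 has a single transcript in the mm10 tables, Add2-201, which held 89.64% of the gene's RPKM in the mm9 tables. Sptb-202 held 90.9% and 95.79%. In Ank1, Epb41, Epb42 and Dmtn the share was spread over 3 to 5 transcripts. Of the 58 transcripts of the 7 genes with more than 1, 3 moved by at least 10 percentage points between the libraries, in 2 genes. Among all genes with at least 2 transcripts and a mean of 1 TPM, 12.3% of transcripts moved this far and 40.6% of genes held one.

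**Figure D2:**
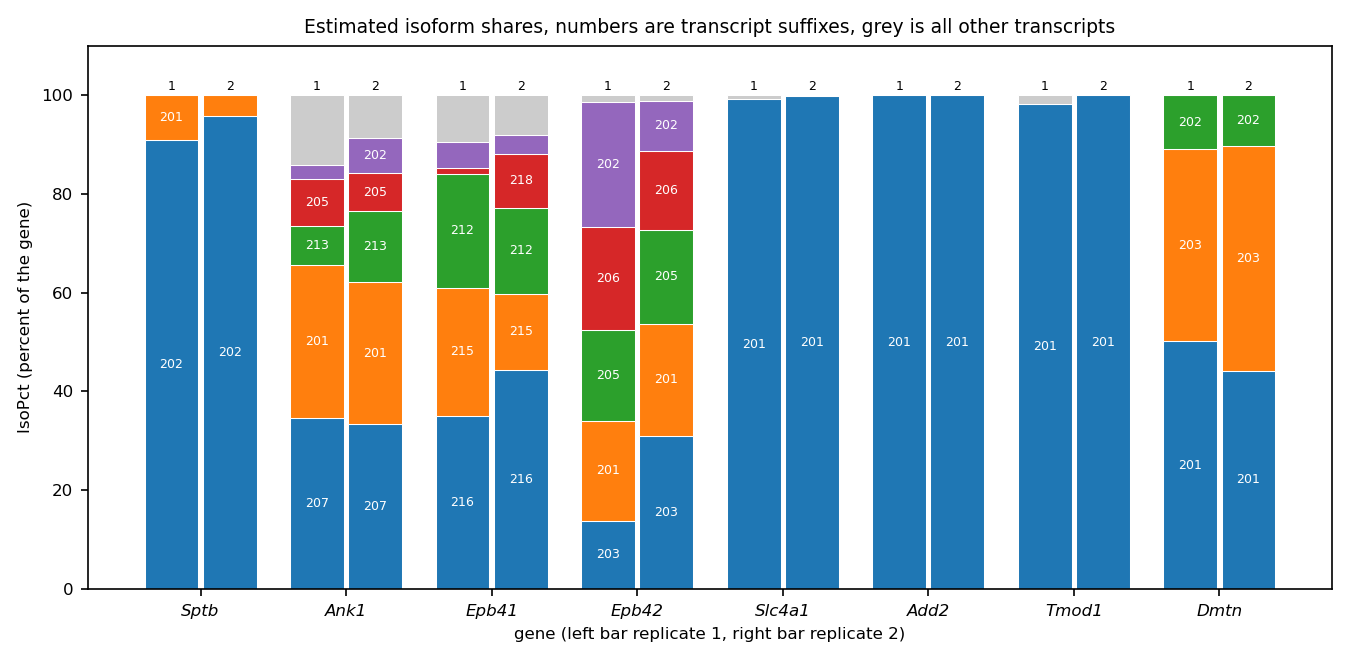
IsoPct (percent of the gene's abundance) of each transcript, stacked for replicate 1 (left bar) and replicate 2 (right bar) of the 8 genes; numbers inside bars are transcript suffixes and grey is the sum of transcripts under 5% in both libraries. Slc4a1, Add2, Tmod1 and Sptb are each led by 1 transcript above 90%, and the order of transcripts within Epb42 differs between the bars.

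Junction reads covered the 8 genes deeply, with 662752 reads on 2052 junctions. Annotated introns held between 93.83% (Dmtn) and 99.4% (Slc4a1) of the reads. A splice site was counted as split when a partner took 5 to 95% of at least 20 reads. Of 339 annotated sites in the 8 genes 26 were split, or 7.67%, against 10.7% of 236032 sites in the whole table. Sptb had 0 split sites of 62, and Epb41 had the highest share with 8 of 44. With sites that hold no annotated junction counted too, 80 junctions lay at split sites. Of these 80, 29 lay at sites with at least 5% of the reads of a typical junction of their gene. Slc4a1 had 27 of the 80 and 0 of the 29.

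By junction reads, beta spectrin ended almost always in its erythroid form. Sptb (chr12:76580488-76710547, minus strand, mm10) can end in a short carboxy terminus or run on through further exons to a long one, which is known from muscle and brain. Of the reads entering the exon where the forms part, 2054 in all, 7 left it for the long end, or 0.341% (0.165 to 0.702%). They were 5 in table replicate 1 and 2 in table replicate 2. IsoPct gave Sptb-201, the long form, 9.10% and 4.21%. The mm9 RPKM of the next exon of the long end, of 260 nt, was 4.12 and 3.01 in the table replicates. That of the whole gene was 17.59 and 12.3. The sum of 6 skeletal muscle markers was 14.5 and 9.81 TPM, most of it from Mylpf with 11.2 and 7.29 TPM. Only 2 of the 6 reached 1 TPM in both libraries, Mylpf and Acta1 (2.13 and 1.92 TPM). Ckm, Myh3, Tnnt3 and Tnni2 were each under 1 TPM in both. The part of muscle cells in the reads of the long end was not tested.

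Among the annotated first exons of ankyrin that are never internal, almost all reads left 1. Ank1 (chr8:22974844-23150497, plus strand, mm10) has several first exons, which are known to serve different tissues. Of 537 reads that left first exons which are never internal, 528 left the leading one, or 98.3% (96.8 to 99.1%), with 286 of 290 in table replicate 1 and 242 of 247 in table replicate 2. A neighbouring first exon, with which Ank1-207 and Ank1-202 begin, had 8 reads. IsoPct ordered this pair the other way, and the mm9 RPKM did not. Transcripts with the leading first exon (Ank1-205, Ank1-206 and Ank1-213) held 17.95% and 22.57%, while those with the neighbouring one held 44.72% and 46.39%. Ank1-207 alone had 34.53% and 33.46%, Ank1-213 had 7.81% and 14.40%, Ank1-205 had 9.51% and 7.68%, and Ank1-202 had 3.0% and 7.08%. By the authors' mm9 RPKM, Ank1-206, with the leading first exon, held 41.65% of the gene, against 4.045% for Ank1-207 and 0.7168% for Ank1-202. The mm9 RPKM differed from the reads elsewhere. Another first exon, of 15 nt, had 0 reads, yet its RPKM was 8.68 and 4.27 in the table replicates. The leading first exon had 6.70 and 6.38.

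The small ankyrin of muscle is a short membrane protein made from the last exons of the locus. Its transcript Ank1-201, of 1030 nt, was given an IsoPct of 31.04% and 28.62%. By expected counts, which do not divide by length, Ank1-201 had 4.96% and 3.90% of the gene. Yet 1 read left its first exon, against 2245 reads at the acceptor it joins, or 0.0445% (0.00786 to 0.252%). Of those 2245 reads 2224 came from the preceding exon of the long forms.

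Near the 3′ end of the ankyrin message several forms were seen. An exon that ends either after 66 nt or 75 nt further on, after 141 nt, used the longer form in most reads. The shorter donor had 229 of 1925 reads, or 11.9% (10.5 to 13.4%), with 10.9% and 13.5% in the table replicates. IsoPct-based abundance gave the shorter form 50.7% and 48.3%. A following exon of 125 nt, whose length is not a multiple of 3, was included in 7.87% of reads (6.75 to 9.16%), 9.02% and 6.05% in the table replicates, against 60.3% and 56.1% by abundance. The sequences that distinguish these forms are shown with the alternative bases in capitals and 20 bases of flanking exon on each side in lower case, from GENCODE M21 transcripts on mm10 (chr8:23141164-23141304 for the longer exon and chr8:23141596-23141720 for the following one).
Ank1 extension of the exon: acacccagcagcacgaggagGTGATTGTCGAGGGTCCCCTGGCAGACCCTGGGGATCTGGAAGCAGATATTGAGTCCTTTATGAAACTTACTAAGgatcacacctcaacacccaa
Ank1 following exon: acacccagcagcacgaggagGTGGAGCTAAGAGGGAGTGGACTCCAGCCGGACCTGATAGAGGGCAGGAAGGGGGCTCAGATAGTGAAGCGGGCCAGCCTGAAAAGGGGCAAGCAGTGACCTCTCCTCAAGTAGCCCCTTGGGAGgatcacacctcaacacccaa
In these transcripts both are flanked by the same 66 nt part and by the same last exon.

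Further upstream Ank1 splicing also varied. An exon of 117 nt took 96 reads from its upstream donor, 4.18% of 2299. Introns inside the 538 nt exon were removed in part of the messages. The acceptor they share had 663 reads, and the start of the exon had 2331. The 663 were 22.1% of the reads of both acceptors together (20.7 to 23.7%), with 27% and 15.6% in the table replicates. Messages spliced inside the exon can be counted at both acceptors, so this is not a share of messages. Of the 663 reads 80.8% came from one donor and 14.5% from another 12 nt away. The donor at the end of the exon, which all these forms use, had 1665 reads. A 4 nt shift of an acceptor, from a 99 nt to a 95 nt exon, held 4.48% of reads (3.63 to 5.52%), close to the 4.26% and 3.59% by abundance.

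Protein 4.1 is known for regulated splicing during red cell maturation. Epb41 (chr4:131923413-132075321, minus strand, mm10) carries a short exon within the part of the protein that binds spectrin and actin, and its inclusion is known to rise as erythroblasts mature. That exon has 63 nt, a multiple of 3, and lies at chr4:131962924-131962986. In table replicates 1 and 2, 916 and 260 reads entered it and 1073 and 449 left it, while 363 and 215 skipped it. Inclusion was 70% (67.9 to 72%), at 73.3% in table replicate 1 and 62.2% in table replicate 2. Both table replicates lay outside that interval, 1 above and 1 below. By isoform abundance it was 63.3% and 73.8%. It is shown in capitals between 20 bases of each neighbour.
Epb41 exon of 63 nt: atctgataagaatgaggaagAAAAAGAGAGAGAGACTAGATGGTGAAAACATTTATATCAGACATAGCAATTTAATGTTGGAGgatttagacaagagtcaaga

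The exons beside it were barely used. The 57 nt exon was entered by 69 reads, 3.87% of those of the upstream donor, and the 42 nt exon had 3 reads entering and 2 leaving. Another exon, of 188 nt, began 3 nt further downstream in 277 reads against 2666 at the main acceptor, or 9.41% (8.41 to 10.5%), with 9.77% and 8.97% in the table replicates. Nearer the 3′ end a 450 nt exon was entered by 119 and 52 reads in the table replicates, 3.62% of the 4720 reads of the donor before it. The donor at its end, which is also that of the first exon of Epb41-218, had 231 reads. These divided 93.5% to 6.49% between acceptors 15 nt apart.

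The start of protein 4.1 is also a choice between forms. An upstream start codon gives a longer protein that is known from non-erythroid cells, and that red cells are known to splice out. It lies in the 17 nt by which a 481 nt exon exceeds its 464 nt form. Of 1543 reads 55 used the acceptor that keeps these bases, or 3.56% (2.75 to 4.61%), at 3.51% and 3.65% in the table replicates. By abundance the longer form had 7.86% and 5.20%. The coding start of Epb41-201 falls 8 nt into the exon, in the segment shown in capitals.
Epb41 upstream segment: GAACATCATGACAACAGagaagagtttag

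Among Epb41 first exons that are never internal, 1 had 1511 of 1519 reads (99.5%, 99 to 99.7%). This share cannot count starts at exons that are internal in other models, such as those of Epb41-216, Epb41-212 and Epb41-218. Transcripts beginning at the leading first exon held an IsoPct of 26.13% and 15.57%. The rest went mostly to models that begin inside the gene. Epb41-216, of 9 exons, held 35.06% and 44.24%, and Epb41-212, of 17 exons, held 23.04% and 17.31%. Epb41-215, of 18 exons, held 25.96% and 15.57% and was the transcript of this gene that moved past 10 points. Epb41-218, of 6 exons, moved from 1.05% to 10.94%, and Epb41-210 had 5.32% and 3.90%. Transcripts with under 0.5 of the exon number of the fullest Epb41 model summed to 44.6% in replicate 1 and 63.0% in replicate 2.

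Reads on the junctions of Epb41 rose along the gene. For each gene the junctions of the transcript model with the most exons were used where they had at least 20 reads, 16 for Epb41. These junctions were divided into 3 equal stretches. For Epb41 the median of the last stretch was 3.84 times that of the first, 5404 against 1407 reads. Over 5004 genes the median ratio was 1.47, with quartiles of 1.07 and 2.07. Sptb had 2.42, Slc4a1 1.76, Ank1 1.73, Epb42 1.53 and Tmod1 1.5. Dmtn (0.786) and Add2 (0.588) ran the other way. For 2 genes a single table replicate moved the ratio by over 1.5 times: Tmod1 had 1.08 and 2.64 in table replicates 1 and 2, and Add2 had 0.793 and 0.386. Epb41 had 3.35 and 4.16. The part of this slope in the IsoPct of models that begin inside the gene was not tested.

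**Figure D3:**
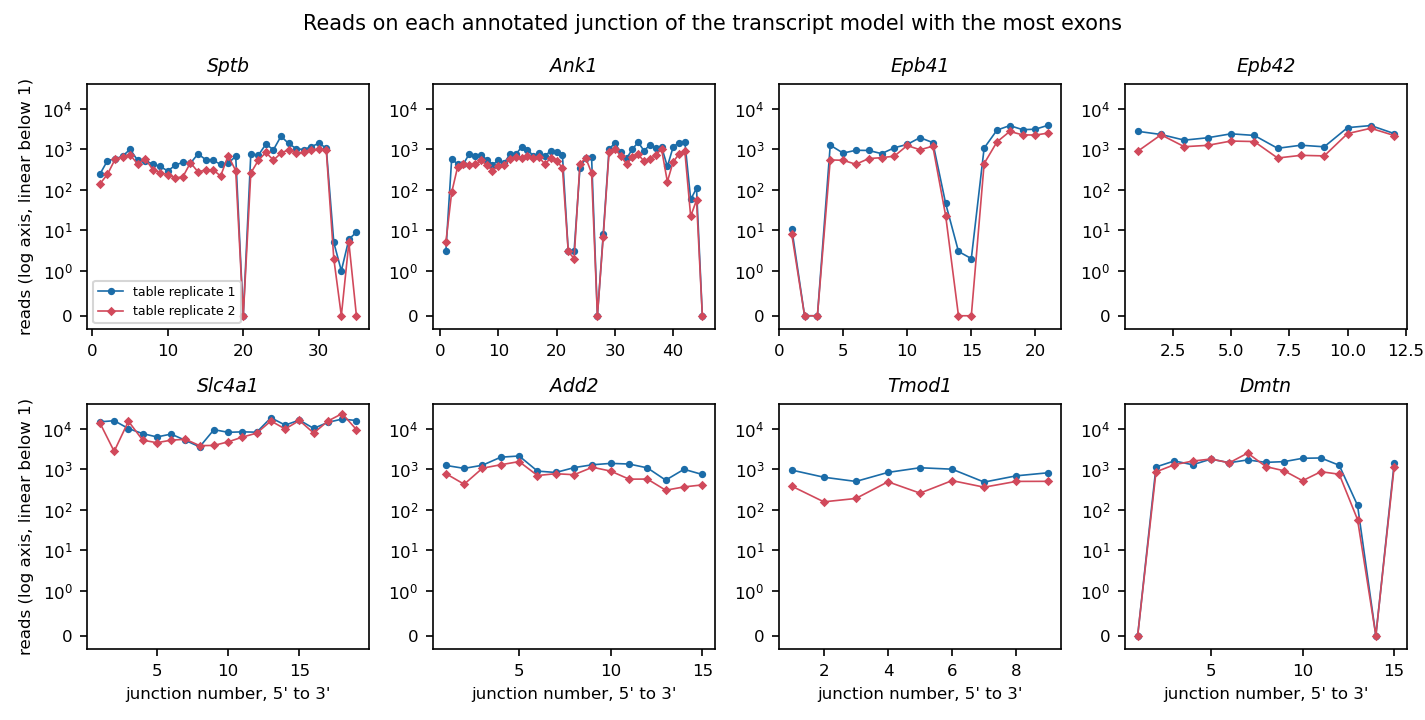
Reads (log axis, linear below 1) on each annotated junction, numbered from 5′ to 3′, of the mm9 transcript model with the most exons of each gene, in table replicate 1 (circles) and table replicate 2 (diamonds). Junctions at the long end of Sptb lie near 0 and Epb41 rises from left to right; the 0 at junction 20 of Sptb lies where another model, with slightly shifted exon edges, has the intron in use (1087 reads).

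Of the 8 genes 5 had entries in the RefSeq promoter table (GRCm38.p6), with 3 windows for Epb41. The window at the used first exon of Epb41 is shown because the junction reads pick it out from the 3. It spans the 250 bases upstream of the RefSeq start (chr4:132075314-132075563, minus strand). Capitals mark GATA preceded by A or T and followed by A or G, read on either strand, which is the motif of GATA factors such as the erythroid GATA1.
Epb41 promoter: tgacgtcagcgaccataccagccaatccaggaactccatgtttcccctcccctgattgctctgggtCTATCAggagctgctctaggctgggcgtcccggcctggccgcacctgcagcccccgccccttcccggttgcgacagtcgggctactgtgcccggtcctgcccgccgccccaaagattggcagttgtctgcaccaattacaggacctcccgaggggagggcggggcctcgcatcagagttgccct
It held 1 match, 184 nt before the start, and the other 2 Epb41 windows held 0. Of all 32851 windows of this length 26.5% held a match. The windows listed for Epb42 and Add2 held 1 match each, and those for Sptb and Tmod1 held 0. The Add2 window is not at the used start: it ends at position 86028680 of chromosome 6, and Add2-201 starts at 86078084.

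Dematin comes in a smaller and a larger form, which differ by a short insert. In Dmtn (chr14:70601263-70636048, minus strand, mm10) the insert is a 66 nt exon that follows a microexon of 8 nt, chr14:70605541-70605548. The message without the insert is shown with the microexon in capitals and 20 bases of each neighbour, since the extensions of the junction reads add up to its length.
Dmtn without the insert: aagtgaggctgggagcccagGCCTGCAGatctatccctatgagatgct
Dmtn-201, which holds the insert, had an IsoPct of 50.15% and 44.17%, and Dmtn-203, which lacks it, had 38.81% and 45.51%. Dmtn-202 has a 5 nt and a 69 nt exon in their place and held 11.04% and 10.32%. Together the transcripts with an insert held 61.2% and 54.5%.

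Junction reads gave the insert a smaller share. The junction from the insert to the next exon had 254 and 88 reads in the table replicates. A junction absent from the annotation spanned the whole stretch with 710 and 551 reads. It extended the downstream exon by 7 nt and the upstream exon by 1 nt, which sum to the 8 nt of the microexon. Counting it as the form without the insert, the insert held 21.3% (19.4 to 23.4%), at 26.3% (23.7 to 29.2%) and 13.8% (11.3 to 16.7%) in the table replicates. On the other side, the share joining any exon in between to the upstream exon was 23.6% (21.6 to 25.7%). It was 26.4% (23.7 to 29.3%) and 19.6% (16.8 to 22.7%) in the table replicates. It includes 128 and 57 reads that join the microexon, which Dmtn-203 also holds, so it is not a share of the insert. On either side the intervals of the table replicates do not overlap. Whether reads across the microexon were placed on its neighbours was not tested.

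A further choice in dematin lies near the start of its coding region. A 75 nt exon, chr14:70617955-70618029, was entered by 1598 and 1291 reads, left by 1288 and 1589 and skipped by 288 and 324. Inclusion was 82.5% (81.2 to 83.7%), 83.4% and 81.6% in the table replicates, against 89.0% and 89.7% by abundance. Its bases are in capitals, with flanks as before.
Dmtn exon of 75 nt: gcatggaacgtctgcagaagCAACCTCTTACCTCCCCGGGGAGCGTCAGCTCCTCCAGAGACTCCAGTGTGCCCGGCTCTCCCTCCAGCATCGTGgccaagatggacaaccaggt

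A share of tropomodulin messages lacked an exon that no annotated model skips. In Tmod1 (chr4:46038935-46116032, plus strand, mm10) a junction absent from the annotation joined the exons on both sides of a coding exon of 157 nt, chr4:46078314-46078470, with 164 and 49 reads. All junctions that span the exon had 178 and 53 reads. The exon was entered by 633 and 156 reads and left by 501 and 189. Inclusion was 76.2% (73.4 to 78.8%), at 76.1% and 76.5% in the table replicates. Isoform abundance gave 100%, because no listed transcript skips it. Its 157 nt leave 1 nt beyond a multiple of 3. The exon is shown in capitals with 20 bases of each neighbour.
Tmod1 exon of 157 nt: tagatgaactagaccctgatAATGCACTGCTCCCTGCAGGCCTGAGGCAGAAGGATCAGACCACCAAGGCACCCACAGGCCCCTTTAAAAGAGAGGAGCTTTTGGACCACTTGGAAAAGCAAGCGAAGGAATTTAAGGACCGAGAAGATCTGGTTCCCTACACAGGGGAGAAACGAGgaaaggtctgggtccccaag
All 1365 reads from first exons that are never internal left 1 Tmod1 first exon, 976 in table replicate 1 and 389 in table replicate 2.

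Beta adducin showed 1 split site, at its second exon. In Add2 (chr6:86028681-86124409, plus strand, mm10) the first exon joined the annotated acceptor with 1239 and 777 reads and an acceptor 3 nt downstream, absent from the annotation, with 319 and 168 reads. The downstream site held 19.4% of the 2507 reads. The 3 bases that the downstream site leaves out are in capitals in the sequence across the joint, and they themselves end in AG, the letters with which introns end. They lie outside the coding sequence.
Add2 second exon start: gatggaggatagCAGttcctacctggc

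Band 3 had 2 split sites of 41, and none among the well-used ones. In Slc4a1 (chr11:102348824-102366203, minus strand, mm10) the leading first exon had 28735 of 28824 reads (99.7%). A shorter band 3 of kidney is known to start inside the gene. The annotated first exon in the intron before the fourth exon had 6 reads, 2 and 4 in the table replicates, against 25390 at the acceptor downstream, or 0.0236% (0.0108 to 0.0516%). IsoPct for its transcript was 0.14% and 0.03%. The 4 kidney markers summed to 0.42 and 0.17 TPM, and Umod was at 0 in both libraries. Within Slc4a1 the ratio of table replicate 2 to table replicate 1 ran from 0.175 to 1.52 over 21 annotated junctions, so the table replicates were uneven along a gene even at this depth. For the whole table the ratio was 0.764.

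By IsoPct no transcript of protein 4.2 led in both libraries. Epb42 (chr2:121017891-121037072, minus strand, mm10) joined its main first exon with 2818 and 913 reads, of 3732 reads from first exons that are never internal. The ratio of table replicate 2 to table replicate 1 ran from 0.321 to 0.984 over its 14 annotated junctions. Its 5 leading transcripts traded places between the libraries. Epb42-203 rose from an IsoPct of 13.8% to 31.04% and Epb42-202 fell from 25.35% to 10.18%, both past 10 points. Epb42-201 had 20.22% and 22.65%, Epb42-205 had 18.45% and 19%, and Epb42-206 had 20.83% and 15.95%. By mm9 RPKM, averaged over the table replicates, Epb42-202 led with 44.04% of the gene. Epb42-205 followed with 16.92%, and Epb42-203 had 0.9038%. Transcripts without an annotated protein summed to an IsoPct of 54.4% and 67.2%. At the well-used sites of Epb42 the only split lay before the last exon. There a donor absent from the annotation, 423 nt from the main one, held 5.61% of 4936 reads (180 and 97 in the table replicates).

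**Figure D4:**
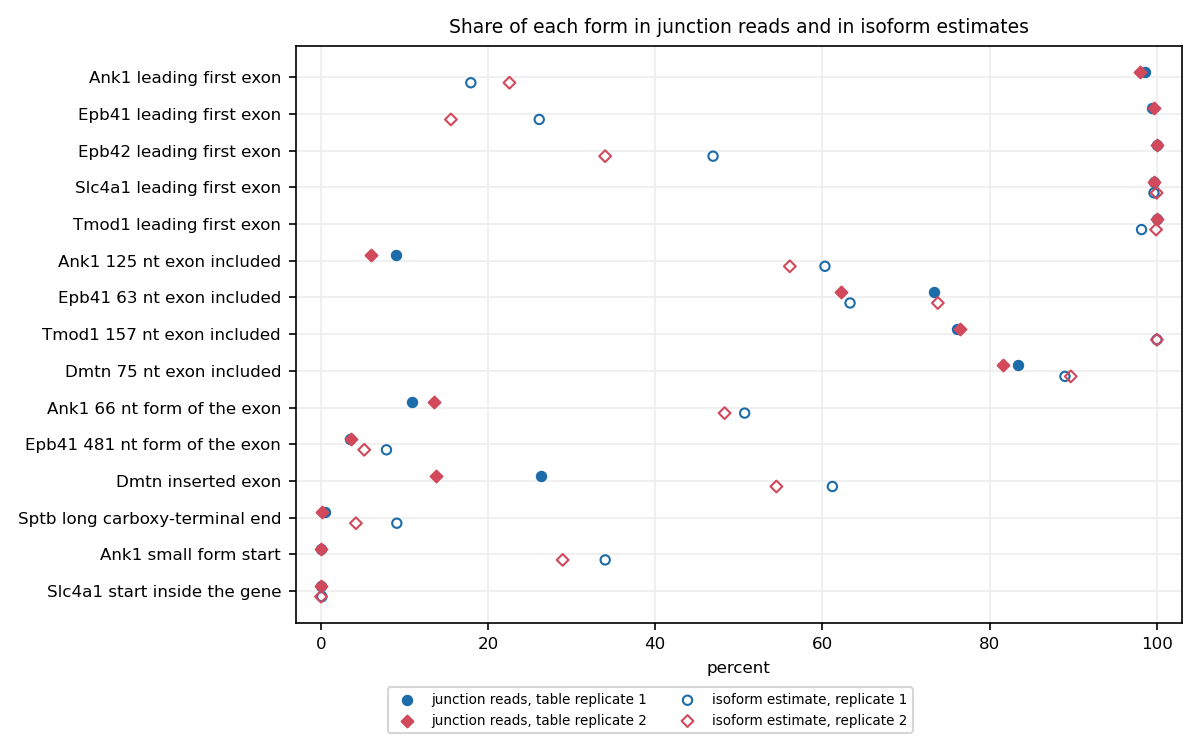
Percent of each form in junction reads (filled, table replicates 1 and 2) and in isoform estimates (open, libraries 1 and 2); estimates are summed IsoPct or shares of TPM over the transcripts that hold or lack the feature. The Slc4a1 rows coincide, while filled and open markers lie far apart for the first exons of Ank1, Epb41 and Epb42 and for the small form of Ank1. Junction shares of first exons leave out starts at exons internal in other models, while IsoPct counts those transcripts.

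Set side by side, the sources were close for some forms and far apart for others. For the 63 nt exon of Epb41 the junction shares were 73.3% and 62.2% and the estimates 63.3% and 73.8%. These are close in level only. If the table replicates are numbered as the libraries are, inclusion fell in junction reads and rose in the estimates. For the first exon of Tmod1 the junction share was 100% and the estimates 98.16% and 99.90%. For the leading first exon of Ank1 the junction share was 98.3% against 17.95% and 22.57%, and for that of Epb42 100% (99.8 to 100%) against 46.9% and 34.0%. These comparisons have no test, since the sources do not tie the table replicates to the libraries and IsoPct carries no count of its own.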

How the data were processed

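Members and lists were chosen with earlier results of these data known. Per the file headers, the authors deposited mm10 gene and transcript tables with expected counts, TPM, FPKM and IsoPct (a percent of the gene), from transcriptome alignments to annotation M4 per a deposited note. Their mm9 tables give RPKM of Ensembl models and, per the file headers, junction read counts with an irreproducible discovery rate (a fraction). The aligner is not given in the sources used here. Identifiers matched GENCODE M21 for 42462 of 43346 genes. Spike-in and other rows (2.92% and 1.91% of counts) were left out.

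Expected counts were rounded. A single group gives a quasi-likelihood fit nothing to compare, so replicate 2 was set against replicate 1 gene by gene with an exact binomial test, two-sided and conditional on the summed count, using TMM sizes (edgeR 4.0.16; DESeq2 1.42.0 and R 4.3.3 for alternatives), over genes with at least 10 counts, Benjamini-Hochberg adjusted, called at 0.05 and 2-fold. The test was checked on simulated data. Transcripts with an IsoPct of at least 5 or a move of 10 points, and junctions at split sites, were named by rule, and some items on the lists are not reported here. The limit of 5% of a typical junction and the exon inclusion measure were set after values were seen. Exons on mm9 were matched to mm10 by their own and neighbouring lengths within a gene, never by coordinates. Python 3.11.15, pandas 2.3.3, scipy 1.17.1, statsmodels 0.14.6 and matplotlib 3.10.9 were used.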

Additional observations from a re-analysis of the deposited data

How the results depend on the processing

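The count of genes called between the libraries stayed within 1.5 times of 1491 with DESeq2 size factors (1485), plain library sums (1493) and a minimum of 1 count (1677), and moved to 645 with edgeR's exact test at the housekeeping dispersion. Under each of these 0 of the 8 skeleton genes were called. The median level of the 8 genes was 59.98 TPM, 79.68 as FPKM, 136.5 as TPM without globin and mitochondrial genes and 24.76 as mm9 RPKM, and 58.44 to 62.84 TPM in single libraries. The median share of the leading transcript was 70.25% by IsoPct, 71.63% by expected counts and 74.98% by mm9 RPKM, and 70.02 to 70.53% in single libraries. Single genes moved further by mm9 RPKM: Ank1-207 from 34 to 4.045%, Epb41-216 from 39.65 to 11.73%, Epb42-203 from 22.42 to 0.9038%, Sptb-202 from 93.34 to 71.11% and Dmtn-201 from 47.16 to 78.86%. By expected counts Ank1-207 had 51.69% and Epb41-216 32.3%. The cause was not tested. The 80 junctions at split sites became 40 at an irreproducible discovery rate under 0.1 and 23 with annotated introns alone, which leave fewer junctions to count. Exon models under 0.5 of the reference were 108 by the median, 114 by the mean and 109 to 110 in single table replicates. Inclusion in each table replicate alone was added after seeing the data. No paired analysis was possible because the series has 1 group. Junction shares of rarely used forms rest on few reads, as low as 1 for small ankyrin.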
